A study of Mus musculus with 3 samples.

Results

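Wnt4-positive cells without Cited1 were 203 of 7898 kept cells sorted from fetal mouse kidneys as nephron progenitors, or 2.53% ± 0.925 of the cells of a library (SD, n = 3). Of 7924 barcodes, 7898 passed the limits of 1000 genes or more and 10% mitochondrial transcripts or less. Members (Wnt4+ Cited1- cells) had at least 1 Wnt4 transcript, counted as unique molecular identifiers (UMIs), 0 Cited1 UMIs and fewer than 2 UMIs summed over Lhx1, Osr2, Emx2 and Cldn6, 4 genes of the early nephron. The cells were thus chosen by their measured UMIs of these genes and, for the comparison cells, of Six2, so these values are given below as a description and were not tested. A pair of other cell groups of the same libraries serve as comparisons. Wnt4+ Cited1+ cells (210) met the same limit on early nephron genes and carried Cited1, and Six2+ Wnt4- cells (6047) carried Six2 and no Wnt4.

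The study profiled the nephron progenitor population of the mouse kidney by single-cell RNA sequencing (10x Chromium, version 2 chemistry). All cells came from Six2GFP+ mice at E14.5 and were sorted for the green fluorescent protein reporter of Six2, with propidium iodide against dead cells and a size gate against debris and doublets. Kidneys of several litters were pooled into each of 3 tubes, and the tubes gave 3 libraries of 1 group, so every comparison here is between cells of the same tubes. The deposited matrix marks a cell's library by a barcode suffix, used here as the names library 1, 2 and 3. Which tube gave which suffix was not worked out here. The p-values below measure only how differences vary over these 3 tubes, which may be technical. The sort keeps cells with reporter protein, so shares refer to the sort.

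Nephron progenitors are mesenchymal cells that cap the ureteric tips and either renew or commit to form nephrons. Six2 keeps them self-renewing and Cited1 marks the least committed of them. Canonical Wnt signalling from the ureteric bud, carried by beta-catenin and TCF/LEF factors, induces Wnt4 in cells that leave this state, and Wnt4 then drives their aggregation and turn into epithelium. BMP signals, read out by Id genes, have been linked to the exit from the Cited1-positive state.

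Library 1 held 106 members, 3.51% of its kept cells (95% exact Clopper-Pearson interval 2.88% to 4.22%). Library 2 held 46 members, 1.67% (1.22% to 2.22%), and library 3 held 51, 2.41% (1.80% to 3.16%). These intervals cover counting error only. The share in library 2 was the lowest, although its interval overlapped that of library 3, and library 2 was also the shallowest, with a median of 11915 UMIs per kept cell against 15913.5 in library 1 and 15815 in library 3. Members had a median of 17411 UMIs per cell, against 19138.5 in Wnt4+ Cited1+ cells and 14737 in Six2+ Wnt4- cells. Because the rule asks for a Wnt4 UMI, it takes deeper cells more readily, and both Wnt4-positive groups were deeper than Six2+ Wnt4- cells in each library. Summed over cells, members gave 2172626, 628044 and 1076592 UMIs in libraries 1, 2 and 3. Doublets were left to the size gate of the sort: 2.46% of members, 13.3% of Wnt4+ Cited1+ cells and 5.59% of Six2+ Wnt4- cells were among the 6% of cells with the highest Scrublet doublet scores of their library. Libraries shared 22 barcodes, and 0 members had one of them. Members were 1.94% of cells with at most 6 A and T bases in the 16-base barcode, 2.80% with 7 to 9, and 2.14% with 10 or more.

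Most members sat just inside the rule. Wnt4 was read as 1 UMI in 123 members (60.6%), as 2 in 37 and as 3 or more in 43, with a maximum of 22. The summed early nephron genes were at 0 in 195 members and at 1 in 8. A Six2 UMI was found in 146 members (71.9%), in 74.5%, 63.0% and 74.5% of those of libraries 1, 2 and 3. Wnt4 stood at 108, 105 and 104 CPM (counts per 1e+06 summed UMIs of the group) in members of libraries 1, 2 and 3 and 78.3, 72.04 and 80.5 CPM in Wnt4+ Cited1+ cells. Six2 stood at 87.9, 118 and 102 CPM in members, against 141, 202 and 156 CPM in Six2+ Wnt4- cells, which had to carry it. Among all Wnt4-positive cells 50.8% lacked a Cited1 UMI, against 35.1% of Six2+ Wnt4- cells, so at this depth a missing Cited1 UMI was common in either group and does not show absence of the transcript. As a measure of free RNA in the droplets, 1 of 81 cells that held at least 2 of the 6 immune markers had a Wnt4 UMI (1.23%), at a median of 9958 UMIs. That cell, of library 2, met the rule and is itself a member, described below with its immune markers. Thinned to 5000 UMIs per cell, 39.6% of members still showed Wnt4.

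Markers of other cell types were found in part in the members. Of the defining markers fixed for other kidney cells, Ret, Gata3, Wnt9b and Wnt7b of the ureteric epithelium, Cdh5, Esam and Tek of endothelium, Ptprc of immune cells and Nphs1 of podocytes were at 0 in all members. The 6 immune markers summed to 3.22, 127 and 0 CPM in members of libraries 1, 2 and 3, against 9.46, 1.47 and 7.49 CPM in Six2+ Wnt4- cells. A single member of library 2 carried nearly all of that signal, with 53 UMIs of C1qb, 8 of Tyrobp, 7 of Fcer1g and 10 of Lyz2. The same cell held 189 of the members' 264 Apoe UMIs and 57 of their 62 Ier3 UMIs, and 0 UMIs of Six2 and Eya1. In the ureteric list 4 of 8 markers were detected in members, and the list summed to 150.05, 210.2 and 162 CPM in members and 165, 228 and 177 CPM in Six2+ Wnt4- cells. In the mural and muscle list 5 of 6 were detected, at a sum of 209, 275 and 212 CPM in members and 331, 419 and 332 CPM in Six2+ Wnt4- cells. The 7 endothelial markers, of which 4 were detected, summed to 4.14, 6.37 and 7.43 CPM in members and 8.98, 9.04 and 9.96 CPM in Six2+ Wnt4- cells. All 9 stromal markers were detected, at a sum of 75.9, 116 and 117 CPM in members and 101, 131 and 109 CPM in Six2+ Wnt4- cells. In the podocyte list 4 of 6 were detected, at a sum of 10.6, 11.1 and 7.43 CPM in members and 27.5, 40.8 and 28.3 CPM in Six2+ Wnt4- cells.

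The label was checked against the markers of committing progenitors. Tmem100, a membrane protein of BMP signalling and a marker given with Wnt4 for these cells, was at 33.6, 31.8 and 36.2 CPM in members, against 16.5, 28.3 and 22.01 CPM in Wnt4+ Cited1+ cells and 6.64, 6.41 and 5.97 CPM in Six2+ Wnt4- cells. In CPM every library of members lay above every library of both other groups. Of all genes tested, 6.45% did not overlap between members and Wnt4+ Cited1+ cells and 12.6% between members and Six2+ Wnt4- cells. Bmper, a secreted modulator of BMP, was at 52.01, 93.9 and 52.9 CPM in members, 35.7, 46.1 and 40.2 in Wnt4+ Cited1+ cells and 22.02, 31.6 and 25.5 in Six2+ Wnt4- cells, again without overlap. Pax8, a transcription factor of the pretubular aggregate, was at 79.6, 92.4 and 64.1 CPM in members, 43.5, 42.5 and 52.4 CPM in Wnt4+ Cited1+ cells and 29.9, 35.7 and 24.8 CPM in Six2+ Wnt4- cells, with members above both. Ccnd1, a D cyclin and Wnt target, was at 174, 234 and 192 CPM in members and 109.7, 141 and 117 CPM in Six2+ Wnt4- cells. Fgf8, which signals for nephron formation, ran against the label, at 39.1, 38.2 and 61.3 CPM in members and 48.4, 63.4 and 46.8 CPM in Six2+ Wnt4- cells, and did not pass the test (log2 fold change -0.15 ± 0.14, SE; edgeR adjusted p = 0.576). Tmem100, Bmper and Pax8 had been named as markers with results of these data known, so they check the label and add no independent support. In cells thinned to 5000 UMIs, Tmem100 was found in 9.41% of members and 2.604% of Six2+ Wnt4- cells, Bmper in 24.8% and 12.1% and Pax8 in 21.3% and 11.7%, all at 0 in the thinned immune-marker cells. Unthinned shares of members and Six2+ Wnt4- cells were 28.1% and 7.64% for Tmem100, 54.2% and 28.2% for Bmper, and 55.2% and 27.7% for Pax8. Detection of Tmem100 set members less apart from Wnt4+ Cited1+ cells, which had it in 7.66% thinned and 24.8% unthinned. In thinned cells, members were higher in library 1 (12.4% and 7.29%) and lower in libraries 2 (4.35% and 5.45%) and 3 (7.84% and 10.3%).

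**Figure D1:**
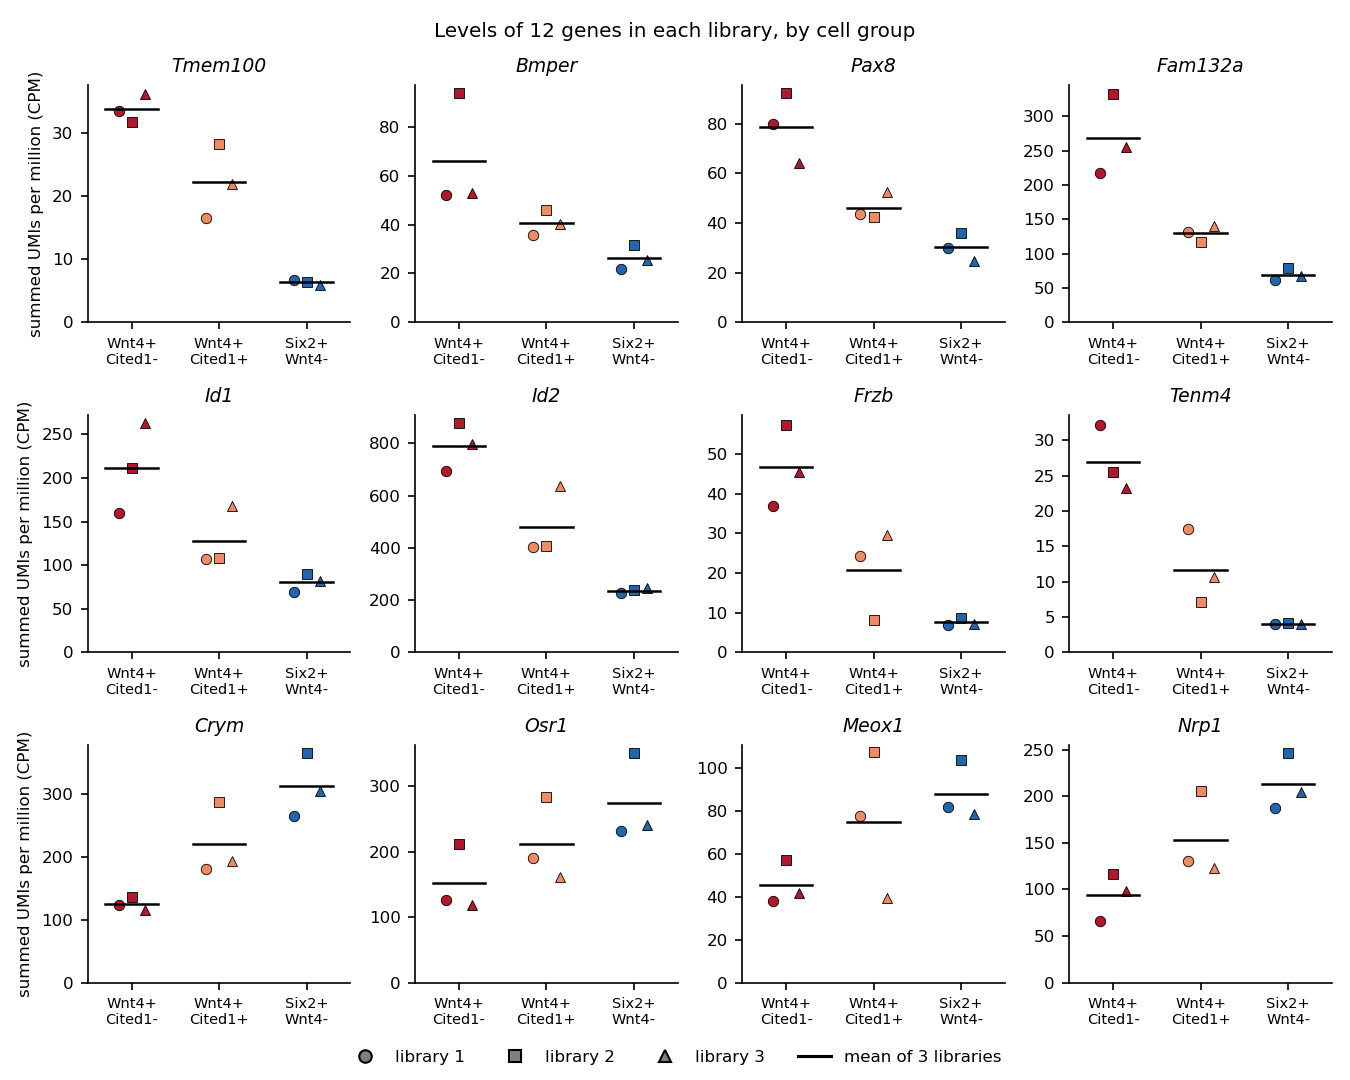
CPM of 12 genes in each of the 3 libraries (symbols) with the mean (line), in Wnt4+ Cited1- cells, Wnt4+ Cited1+ cells and Six2+ Wnt4- cells, linear axes from 0. Id2, for example, averaged 789.8 CPM in Wnt4+ Cited1- cells, 481 CPM in Wnt4+ Cited1+ cells and 236 CPM in Six2+ Wnt4- cells, and Crym 126, 220.4 and 313 CPM.

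The first comparison asked how Wnt4+ Cited1- cells differ from progenitors that carry Six2 and no Wnt4 in the same tube. Of 10289 genes tested, 692 (6.73%) were higher and 593 (5.76%) lower in members at an edgeR adjusted p below 0.05 (12.5% in all, quasi-likelihood test with library as a block). The libraries of members and Six2+ Wnt4- cells did not overlap in CPM in 1300 of these genes (12.6%), the share to set beside each gene said not to overlap. The largest increases among genes at 20 CPM or more included Tenm4, Frzb, Tmem100, Col9a1, Id4, Fam132a, Sct, Id2, Lmcd1, Tmem35, Rhou and Fgf9. The largest decreases included those of Ntsr1, Dcx, Slc40a1, Calcrl, Colec12, Ppp1r14a, Lfng, Nefl, Pgf, Fgf1 and Ifitm1. The 24 genes so chosen passed with each library left out in turn and against Six2+ Wnt4- cells matched to the members in UMIs, a comparison that called 544 of 10055 genes (5.41%). Without library 1, which holds most of the members' UMIs, 444 genes were called, without library 2 1323 and without library 3 846. Without the library block Sct, Slc40a1, Ppp1r14a and Ifitm1 did not pass (edgeR adjusted p = 0.0651 to 0.369). Slc40a1 and Sct also failed with sums thinned to equal depth (edgeR adjusted p = 0.165 to 0.208). Nefl failed when the rule was applied after thinning to 8000 UMIs (edgeR adjusted p = 0.0663). Choosing genes by the same direction in 3 of 3 libraries favours passing with a library left out.

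Tenm4, a teneurin of cell contacts (chromosome 7, 96171246 to 96911093, GRCm38), showed the largest increase among them. It was at 32.2, 25.5 and 23.2 CPM in members of libraries 1, 2 and 3, against 4.05, 4.099 and 3.96 CPM in Six2+ Wnt4- cells, a log2 fold change of 2.76 ± 0.22 (SE; edgeR adjusted p = 1.24e-13). Fam132a, which encodes the secreted C1q/TNF-related protein adipolin (chromosome 4, 155962318 to 155966629), was found in 86.2% of members. Its level was 217, 333 and 255 CPM in members, against 61.03, 78.3 and 67.3 CPM in Six2+ Wnt4- cells (log2 fold change 1.92 ± 0.07, SE; edgeR adjusted p = 1.25e-24). In neither gene did the libraries of the groups overlap. Col9a1, a chain of collagen IX, stood at 27.6, 58.9 and 22.3 CPM in members and 6.13, 7.46 and 5.41 CPM in Six2+ Wnt4- cells (log2 fold change 2.38 ± 0.204, SE). Sct, the secretin precursor, varied between libraries, at 34.5, 9.55 and 24.2 CPM in members and 10.4, 2.66 and 6.14 CPM in Six2+ Wnt4- cells. Its groups overlapped across libraries, although members were higher within each (log2 fold change 1.800 ± 0.19, SE; edgeR adjusted p = 4.24e-10). Lmcd1, a LIM-domain cofactor, Tmem35, a membrane chaperone of nicotinic receptors, and Rhou, a small GTPase induced by Wnt, rose by 1.697, 1.69 and 1.57 on the log2 scale.

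Among the decreases, Dcx, the microtubule protein doublecortin (chromosome X), was at 7.82, 22.3 and 6.502 CPM in members and 30.05, 38.9 and 34.3 CPM in Six2+ Wnt4- cells (log2 fold change -1.72 ± 0.21, SE; edgeR adjusted p = 1.59e-08). Ntsr1, a neurotensin receptor, was at 4.603, 6.37 and 11.1 CPM in members and 20.05, 28.8 and 23.04 CPM in Six2+ Wnt4- cells (log2 fold change -1.73 ± 0.24, SE; edgeR adjusted p = 4.42e-07). Neither overlapped between the groups. Pgf, placental growth factor, had 23.01, 46.2 and 32.5 CPM in members and 73.05, 109.97 and 83.3 CPM in Six2+ Wnt4- cells (log2 fold change -1.47 ± 0.13, SE; edgeR adjusted p = 7.86e-13). Colec12, a scavenger receptor, Calcrl, the receptor of adrenomedullin and CGRP, and Ifitm1, an interferon-induced membrane protein, fell by 1.55, 1.57 and 1.46 on the log2 scale. Slc40a1, the iron exporter ferroportin, and Ppp1r14a, an inhibitor of myosin phosphatase, overlapped between the groups across libraries, but each was lower in members within every library.

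Genes of the canonical Wnt pathway rose in part. Of 19 listed targets and nuclear effectors 15 were tested, of which 7 were higher (6.73% of all genes), 1 was lower and 7 did not pass. The median log2 fold change of the list was 0.16, against 0.00 over all genes. Sp5, a transcription factor induced by beta-catenin, was at 11.5, 17.5 and 15.8 CPM in members and 0.933, 1.296 and 0.625 CPM in Six2+ Wnt4- cells (log2 fold change 3.96 ± 0.38, SE; edgeR adjusted p = 3.57e-11). Lef1, a DNA-binding partner of beta-catenin, was at 11.97, 7.96 and 9.29 CPM in members and 0.826, 0.946 and 0.625 CPM in Six2+ Wnt4- cells (log2 fold change 3.69 ± 0.42, SE; edgeR adjusted p = 4.28e-09). These are low levels, from 53 UMIs of Sp5 in 33 members and 41 of Lef1 in 28, and the groups did not overlap. Notum, a secreted enzyme that inactivates Wnt, rested on 23 UMIs in 10 members (7.36, 3.18 and 4.64 CPM in members, 0.24, 0.28 and 0.139 CPM in Six2+ Wnt4- cells). Tcf7, another factor of this family, stood at 11.05, 11.1 and 20.4 CPM in members and 4.61, 7.18 and 7.15 CPM in Six2+ Wnt4- cells (log2 fold change 1.24 ± 0.24, SE; edgeR adjusted p = 0.000212). Nkd1 and Znrf3, feedback inhibitors of the pathway, and Ccnd1 were the other genes that rose. Tcf7l1, the family member that mostly represses targets, was lower, at 36.4, 39.8 and 26.01 CPM in members and 60.998, 69.7 and 66.5 CPM in Six2+ Wnt4- cells (log2 fold change -0.92 ± 0.13, SE; edgeR adjusted p = 3.04e-07). The feedback gene Axin2 was at 11.05, 7.96 and 19.5 CPM in members and 13.4, 15.2 and 11.6 CPM in Six2+ Wnt4- cells and did not pass (edgeR adjusted p = 0.981). Without library 1, 4 of 13 tested genes of the list were higher and 1 was lower.

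Promoter sequences were found for 4 of the 7 Wnt genes that rose (RefSeq, GRCm38.p6; 250 bases before to 50 after a start), and those of Sp5 and Lef1 are shown because these genes had the largest fold changes after Notum. Capitals mark CTTTGA, the core of the TCF/LEF site, or its reverse complement TCAAAG, and GGCGCC, a BMP Smad element that reads the same on both strands. Matches of the motifs can share at most their end base. CTTTGA on either strand is in 5257 of 32851 promoters of this length (16.003%) and GGCGCC in 3898 (11.9%). Sp5 holds CTTTGA 204 and 104 bases before its start (chr2:70474673-70474972, + strand). Of 4 listed Lef1 starts, the first (chr3:131110047-131110346, + strand) holds GGCGCC and no CTTTGA and is the one printed, while the fourth (chr3:131156044-131156343, + strand) holds 2 matches of CTTTGA, both as TCAAAG, and no GGCGCC. A match describes the letters in this window and shows neither binding nor its absence.
Sp5: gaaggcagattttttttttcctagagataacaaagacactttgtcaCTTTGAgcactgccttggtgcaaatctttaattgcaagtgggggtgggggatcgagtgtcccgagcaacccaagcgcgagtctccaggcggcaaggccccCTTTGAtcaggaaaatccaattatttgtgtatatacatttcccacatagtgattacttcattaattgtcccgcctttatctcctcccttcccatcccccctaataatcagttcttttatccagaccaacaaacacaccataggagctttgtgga
Lef1, first start: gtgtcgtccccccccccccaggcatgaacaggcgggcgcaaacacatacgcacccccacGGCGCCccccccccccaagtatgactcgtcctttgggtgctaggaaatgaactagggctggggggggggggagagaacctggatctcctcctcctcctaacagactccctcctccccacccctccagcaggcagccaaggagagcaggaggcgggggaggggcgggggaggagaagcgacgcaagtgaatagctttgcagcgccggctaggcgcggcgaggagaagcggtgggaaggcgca

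Most listed Wnt ligands, receptors and R-spondins did not pass, and no Wnt ligand passed. Of 15 tested genes 1 was higher (6.73% of all genes), the receptor Fzd1. Lower were 2 (5.76% of all genes), Rspo3 and Rspo1, which encode R-spondins that stabilise Wnt receptors. Rspo3 was at 69.5, 102 and 54.8 CPM in members and 161, 192 and 176 CPM in Six2+ Wnt4- cells (log2 fold change -1.26 ± 0.095, SE; edgeR adjusted p = 2.05e-14). Fzd1 did not pass without library 1 (edgeR adjusted p = 0.151). Of 4 tested secreted Wnt inhibitors 3 were higher. Frzb, a secreted frizzled-related protein (chromosome 2, 80411970 to 80447625), was at 36.8, 57.3 and 45.5 CPM in members and 6.98, 8.76 and 7.15 CPM in Six2+ Wnt4- cells (log2 fold change 2.54 ± 0.19, SE; edgeR adjusted p = 9.49e-15). Sfrp2 of the same family was at 84.7, 84.4 and 71.5 CPM in members and 39.1, 53.04 and 43.9 CPM in Six2+ Wnt4- cells, a log2 fold change of 0.905 ± 0.102 (SE). The libraries overlapped in neither. Sfrp1 also passed (log2 fold change 0.62 ± 0.18, SE; edgeR adjusted p = 0.0158) but not without library 1 (edgeR adjusted p = 0.145) or library 3 (0.0902).

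BMP readout genes were higher in members. Of 22 tested genes of the BMP and TGF-beta pathway 8 were higher, 3 lower and 11 did not pass, with a list median of 0.17. Of all genes 6.73% were higher and 5.76% lower. All 4 Id genes, which encode helix-loop-helix proteins that block differentiation factors and are induced by BMP, were higher. Id2 (chromosome 12, 25093799 to 25097140) was at 693, 877 and 799 CPM in members of libraries 1, 2 and 3, against 226, 237 and 245 CPM in Six2+ Wnt4- cells (log2 fold change 1.72 ± 0.06, SE; edgeR adjusted p = 7.86e-26). Every library of members was above every one of Six2+ Wnt4- cells. Id1 was at 160.2, 212 and 263 CPM in members and 69.3, 89.8 and 82.02 CPM in Six2+ Wnt4- cells (log2 fold change 1.38 ± 0.08, SE). Id3 was at 693, 871 and 873 CPM in members and 423, 520.2 and 468 CPM in Six2+ Wnt4- cells (log2 fold change 0.78 ± 0.05, SE). Id4, the scarcest of them in members, was at 9.21, 25.5 and 27.9 CPM there and 2.35, 4.24 and 5.14 CPM in Six2+ Wnt4- cells (log2 fold change 2.32 ± 0.26, SE; edgeR adjusted p = 1.62e-09). In thinned cells, an Id2 UMI was found in 82.7% of members and 49.04% of Six2+ Wnt4- cells, and Id1 in 47.5% and 22.9%. The thinned immune-marker cells had shares of 35.5% for Id2 and 1.32% for Id1.

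Of the other genes of this list, Bmp2, a ligand, was at 12.4, 11.1 and 12.1 CPM in members and 2.51, 4.38 and 1.94 CPM in Six2+ Wnt4- cells, but did not pass without library 1 (edgeR adjusted p = 0.0551). Bmper rose by 1.28 ± 0.12 on the log2 scale (SE; edgeR adjusted p = 2.20e-11), and the antagonists Bambi, a decoy receptor, and Smad7, an inhibitory Smad, also rose. Bmp7, a ligand made by the progenitors themselves, fell, at 103, 102 and 101 CPM in members and 136, 195 and 157 CPM in Six2+ Wnt4- cells (log2 fold change -0.58 ± 0.09, SE; edgeR adjusted p = 1.61e-06). Tgfbi, a matrix protein induced by TGF-beta, was at 168, 249.98 and 203 CPM in members and 298, 425 and 357 CPM in Six2+ Wnt4- cells (log2 fold change -0.804 ± 0.06, SE; edgeR adjusted p = 1.37e-14). The receptor gene Acvr2b passed only with all libraries (edgeR adjusted p = 0.0298; 0.235, 0.0558 and 0.0551 without libraries 1, 2 and 3).

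Promoters were found for 4 of the 8 genes of this list that rose, and 2 of the 4 held GGCGCC, those of Id2 and Id4, shown here because they carry the largest changes of the Id family with a promoter in the table. In Id2 (chr12:25096043-25096342, - strand) it lies 231 bases before the start. In Id4 (chr13:48260866-48261165, + strand) GGCGCC lies 148 bases before the start and CTTTGA 36 bases after it. Bmper holds CTTTGA 210 bases before its start. GGCGCC was not particular to these genes. Tgfbi, 1 of 2 lowered genes of this list with a promoter, held it. So did the lowered Wnt gene Tcf7l1 and 2 of the 4 raised Wnt genes with a promoter, Lef1 and Tcf7. Capitals mark the same motifs as above.
Id2: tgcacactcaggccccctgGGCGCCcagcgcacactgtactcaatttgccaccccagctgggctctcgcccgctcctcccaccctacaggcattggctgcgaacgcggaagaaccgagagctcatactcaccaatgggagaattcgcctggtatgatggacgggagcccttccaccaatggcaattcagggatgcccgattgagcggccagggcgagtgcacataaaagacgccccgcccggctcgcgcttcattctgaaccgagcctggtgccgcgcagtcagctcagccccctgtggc
Id4: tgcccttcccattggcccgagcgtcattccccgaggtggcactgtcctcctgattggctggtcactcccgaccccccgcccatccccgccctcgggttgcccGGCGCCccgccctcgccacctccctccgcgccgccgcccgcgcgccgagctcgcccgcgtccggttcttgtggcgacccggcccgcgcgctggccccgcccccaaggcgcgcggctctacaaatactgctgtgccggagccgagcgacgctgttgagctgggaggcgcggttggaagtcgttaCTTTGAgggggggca

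FGF and Notch genes moved in both directions. Of 20 tested FGF ligands, receptors and feedback genes 3 were higher and 5 lower, against 6.73% and 5.76% of all genes. The list median was 0.00. Fgf9, a ligand that keeps progenitors alive, was at 22.1, 30.3 and 26.01 CPM in members and 7.84, 9.74 and 8.71 CPM in Six2+ Wnt4- cells (log2 fold change 1.56 ± 0.19, SE; edgeR adjusted p = 3.79e-08). Spry1, a feedback inhibitor of receptor signalling, was at 73.6, 81.2 and 73.4 CPM in members and 27.5, 37.8 and 34.003 CPM in Six2+ Wnt4- cells (log2 fold change 1.26 ± 0.11, SE; edgeR adjusted p = 3.61e-12). Both were higher in members without overlap. Fgf1, another ligand, ran the other way, at 6.904, 14.3 and 7.43 CPM in members and 21.5, 29.3 and 22.1 CPM in Six2+ Wnt4- cells (log2 fold change -1.46 ± 0.23, SE; edgeR adjusted p = 3.21e-06). The receptor gene Fgfr1 fell by 0.46 on the log2 scale, and the phosphatase gene Dusp5 rose by 0.82. Etv1 and Spry2 passed with all libraries but lost the call without library 1 (edgeR adjusted p = 0.109 and 0.0872) and without library 3 (0.167 and 0.355), and Spry2 also without library 2 (0.0508). The count of lower FGF genes was 2 without library 1 and 3 without library 2 or 3.

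Of 14 tested Notch pathway genes 3 were higher and 4 lower, against 6.73% and 5.76% of all genes. Jag1, a Notch ligand of the early nephron, was at 5.52, 3.18 and 6.502 CPM in members and 0.533, 0.561 and 0.59 CPM in Six2+ Wnt4- cells (log2 fold change 3.24 ± 0.58, SE; edgeR adjusted p = 4.56e-05). It rested on 21 UMIs in 17 members. Hey1, a target of the pathway, was at 42.8, 63.7 and 43.7 CPM in members and 25.9, 42.7 and 24.2 CPM in Six2+ Wnt4- cells (log2 fold change 0.73 ± 0.13, SE; edgeR adjusted p = 2.90e-05). Lfng, which modifies Notch receptors, was lower, at 5.06, 14.3 and 5.57 CPM in members and 17.04, 26.3 and 19.3 CPM in Six2+ Wnt4- cells (log2 fold change -1.51 ± 0.26, SE; edgeR adjusted p = 2.34e-05). The target Hes1, at 349.8, 484 and 310.2 CPM in members and 504, 573 and 394 CPM in Six2+ Wnt4- cells, was lower within each library but overlapped across them and lost the call without library 1 (edgeR adjusted p = 0.055). Hes6 fell by 0.46 on the log2 scale. Without library 3, Mfng and Dlk1 did not pass (edgeR adjusted p = 0.106 and 0.474), nor Dlk1 without library 1 (0.0766). Without library 1, 1 Notch gene was higher and 2 were lower of 10 tested, and without library 3, 1 and 3 of 13.

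Regulators of the progenitor state split. Of 23 tested genes 6 were higher and 7 lower, against 6.73% and 5.76% of all genes, with a list median of 0.03. Crym, a thyroid hormone-binding protein of uncommitted progenitors (chromosome 7, 120186380 to 120202111), was at 124, 137 and 116 CPM in members of libraries 1, 2 and 3, against 266, 366 and 306 CPM in Six2+ Wnt4- cells (log2 fold change -1.25 ± 0.07, SE; edgeR adjusted p = 2.31e-18). The groups were far apart, and in thinned cells Crym was found in 41.6% of members and 72.4% of Six2+ Wnt4- cells. Osr1, a zinc-finger factor of kidney mesenchyme, was at 127, 212 and 118 CPM in members and 232, 352 and 241 CPM in Six2+ Wnt4- cells (log2 fold change -0.88 ± 0.07, SE; edgeR adjusted p = 8.39e-14). Meox1, a homeobox gene of the same cells, was at 38.2, 57.3 and 41.8 CPM in members and 82.01, 104 and 78.7 CPM in Six2+ Wnt4- cells (log2 fold change -0.998 ± 0.13, SE; edgeR adjusted p = 8.41e-08). Both were lower in members in every library, without overlap. Traf1, a signalling adaptor, and Robo2, the receptor of Slit, fell by 1.07 and 0.72 on the log2 scale. Eya1, the phosphatase partner of Six2, fell less, at 165, 323 and 164 CPM in members and 207, 354 and 228 CPM in Six2+ Wnt4- cells (log2 fold change -0.31 ± 0.06, SE; edgeR adjusted p = 0.000371), with overlap across libraries.

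Several core factors of the list did not pass. Wt1 was at 331, 459 and 315 CPM in members and 307, 423 and 329 CPM in Six2+ Wnt4- cells (log2 fold change 0.06 ± 0.05, SE; edgeR adjusted p = 0.496). Sall1 (0.21 ± 0.09; adjusted p = 0.114), Gdnf (0.18 ± 0.12; 0.374) and Hoxd11 (0.03 ± 0.08; 0.868), by the same edgeR test, also missed the threshold. Nr2f1, an orphan nuclear receptor, was higher, at 45.1, 33.4 and 45.5 CPM in members and 22.1, 17.7 and 22.6 CPM in Six2+ Wnt4- cells (log2 fold change 1.01 ± 0.14, SE; edgeR adjusted p = 2.34e-07). The increases of Hoxc11 and Uncx were lost without library 1 (edgeR adjusted p = 0.214 and 0.11), and 2 of 23 genes were higher and 6 lower without it.

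Of 11 tested early nephron transcription factors 3 were higher and 5 lower, against 6.73% and 5.76% of all genes. Pax8 (chromosome 2, 24420560 to 24475599) had a log2 fold change of 1.39 ± 0.11 (SE; edgeR adjusted p = 2.06e-13). Pax2, its relative that is already active in progenitors, was at 209.9, 232 and 205 CPM in members and 138, 159 and 134 CPM in Six2+ Wnt4- cells (log2 fold change 0.598 ± 0.06, SE; edgeR adjusted p = 5.39e-10). Sox9, a factor of later tubule segments, was at 0.921, 0 and 3.72 CPM in members, from 6 UMIs in all, against 7.198, 9.81 and 8.08 CPM in Six2+ Wnt4- cells (log2 fold change -2.33 ± 0.46, SE; edgeR adjusted p = 0.000218). Ccdc80, a matrix protein held on this list, fell by 1.04 on the log2 scale. Tcf21 lost its call without any 1 library (edgeR adjusted p = 0.0564, 0.246 and 0.0552 without libraries 1, 2 and 3), and 3 genes of the list were lower without library 1.

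**Figure D2:**
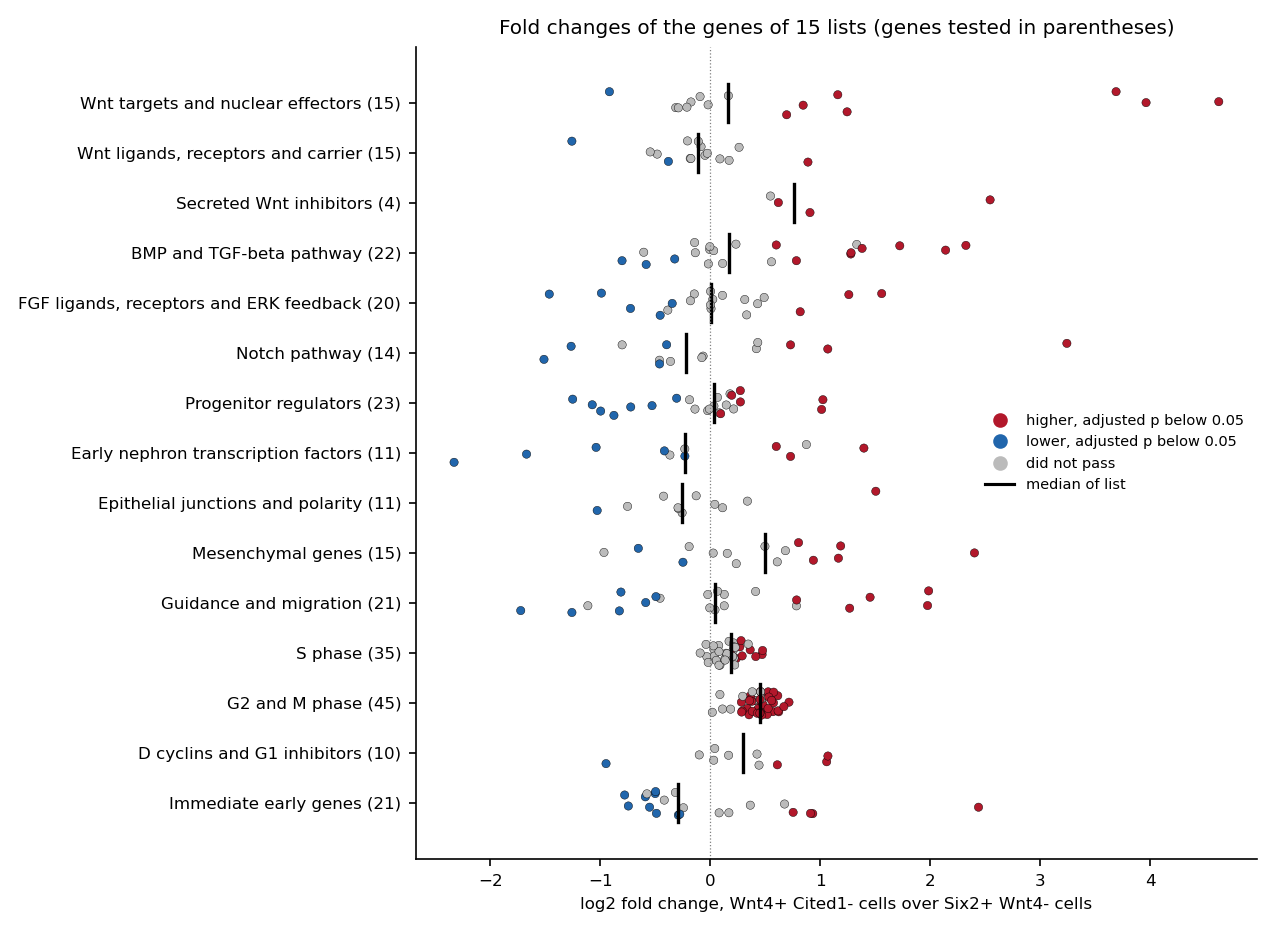
Log2 fold change of Wnt4+ Cited1- cells over Six2+ Wnt4- cells for each tested gene (points) of 15 gene lists, with the list's median (bar); red and blue points passed an edgeR adjusted p of 0.05. In the G2 and M phase list 36 of 45 genes were higher and 0 lower, in the BMP and TGF-beta list 8 and 3 of 22. Of all genes 6.73% were higher and 5.76% lower.

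Few epithelial genes passed, while some mesenchymal genes passed in each direction. Of 11 tested genes of epithelial junctions and polarity 1 was higher and 1 lower, against 6.73% and 5.76% of all genes. Wfdc2, a secreted protein of kidney epithelium, was at 72.7, 39.8 and 84.5 CPM in members and 27.6, 15.4 and 25.9 CPM in Six2+ Wnt4- cells (log2 fold change 1.503 ± 0.12, SE; edgeR adjusted p = 1.05e-13). Spint2, an inhibitor of serine proteases, was at 13.3, 17.5 and 21.4 CPM in members and 26.7, 35.3 and 44.7 CPM in Six2+ Wnt4- cells (log2 fold change -1.03 ± 0.17, SE; edgeR adjusted p = 1.20e-05). The cadherin gene Cdh1 of mature epithelium had 0 UMIs in members. Of 15 tested mesenchymal genes 5 were higher and 2 lower, against the same shares of all genes. Acta2, Col1a1 and Col1a2 passed, but few cells carried them: 1 member of library 3 held 13 of 32 Acta2 UMIs, 21 of 60 Col1a1 UMIs and 16 of 55 Col1a2 UMIs, and 1 of library 1 held a further 14 Col1a1 and 13 Col1a2 UMIs. Without library 1, the increase of the cadherin gene Cdh4 and the decrease of Cdh11 did not pass (edgeR adjusted p = 0.175 and 0.365), and 3 of 10 tested mesenchymal genes were higher and 1 lower. Zeb1, a repressor of epithelial genes, was lower, at 36.8, 38.2 and 42.7 CPM in members and 57.1, 76.6 and 59.2 CPM in Six2+ Wnt4- cells (log2 fold change -0.66 ± 0.12, SE; edgeR adjusted p = 4.46e-05), while the intermediate filament gene Vim did not pass (adjusted p = 0.104).

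Of 21 tested guidance and migration genes 5 were higher and 6 lower, against 6.73% and 5.76% of all genes. Slit2, a ligand of Robo receptors, was at 33.6, 35.03 and 34.4 CPM in members and 13.1, 17.3 and 14.3 CPM in Six2+ Wnt4- cells (log2 fold change 1.27 ± 0.16, SE; edgeR adjusted p = 4.05e-08). Its relative Slit1 was at 5.52, 4.78 and 5.57 CPM in members and 1.28, 1.997 and 1.15 CPM in Six2+ Wnt4- cells, from 21 UMIs in 21 members. Nrp1, a receptor of semaphorins and VEGF, was lower, at 65.8, 116 and 98.5 CPM in members and 187, 246 and 205 CPM in Six2+ Wnt4- cells (log2 fold change -1.26 ± 0.09, SE; edgeR adjusted p = 2.24e-15). None of these overlapped between the groups. Sema3c drew 23 of its 59 UMIs from 1 member and lost its call without library 3 (edgeR adjusted p = 0.234), and Sema3d and Cxcl12 lost theirs without library 1 (0.251 and 0.0795). The list had 2 genes higher and 2 lower of 16 tested without library 1, and 3 higher without library 3.

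Cell cycle genes were higher in members against all Six2+ Wnt4- cells, and few were against cells of matched depth. Against all Six2+ Wnt4- cells, 36 of 45 genes of G2 and M phase and 9 of 35 of S phase were higher (6.73% of all genes). In either list 0 were lower (5.76% of all genes). The list medians were 0.45 and 0.19. Top2a, the mitotic topoisomerase, was at 304, 178 and 333 CPM in members and 232, 255 and 231 CPM in Six2+ Wnt4- cells. Ccnb1, a mitotic cyclin, was at 149, 137 and 145 CPM in members and 101, 139.995 and 96.4 CPM in Six2+ Wnt4- cells. Both were higher in members of libraries 1 and 3 and lower in those of library 2. G2 and M genes took 0.644%, 0.599% and 0.713% of the members' UMIs in libraries 1, 2 and 3, against 0.483%, 0.565% and 0.483% in Six2+ Wnt4- cells. Members were also deeper, at a median of 17411 UMIs against 14737. Against Six2+ Wnt4- cells matched to them in UMIs, 3 per member, 2 of 45 G2 and M genes and 0 of 35 S phase genes were higher, and the medians were 0.08 and -0.01. By edgeR 3 of these S phase genes had an unadjusted p below 0.05. In the matched comparison 255 of 10055 genes (2.54%) were higher, 289 (2.87%) lower, 5 of 23 progenitor regulators were higher and 7 lower, and 7 of 21 BMP genes were higher and 2 lower. Of genes named above, Fzd1, Sfrp1, Acvr2b, Smad7, Etv1, Spry2, Dlk1, Mfng, Cdh11, Sema3d, Cxcl12 and Cdkn1a, a kinase inhibitor, did not pass against matched cells (edgeR adjusted p = 0.0663 to 0.493). Nor did Top2a and Ccnb1, whose log2 fold changes were 0.28 and 0.45 against all Six2+ Wnt4- cells and -0.15 and -0.05 against matched cells (edgeR adjusted p = 0.41 and 0.884), a change of direction. The G2 and M count was 13 without library 1 and 24 without library 3. A difference in cycling and a difference in depth cannot be told apart here.

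**Figure D3:**
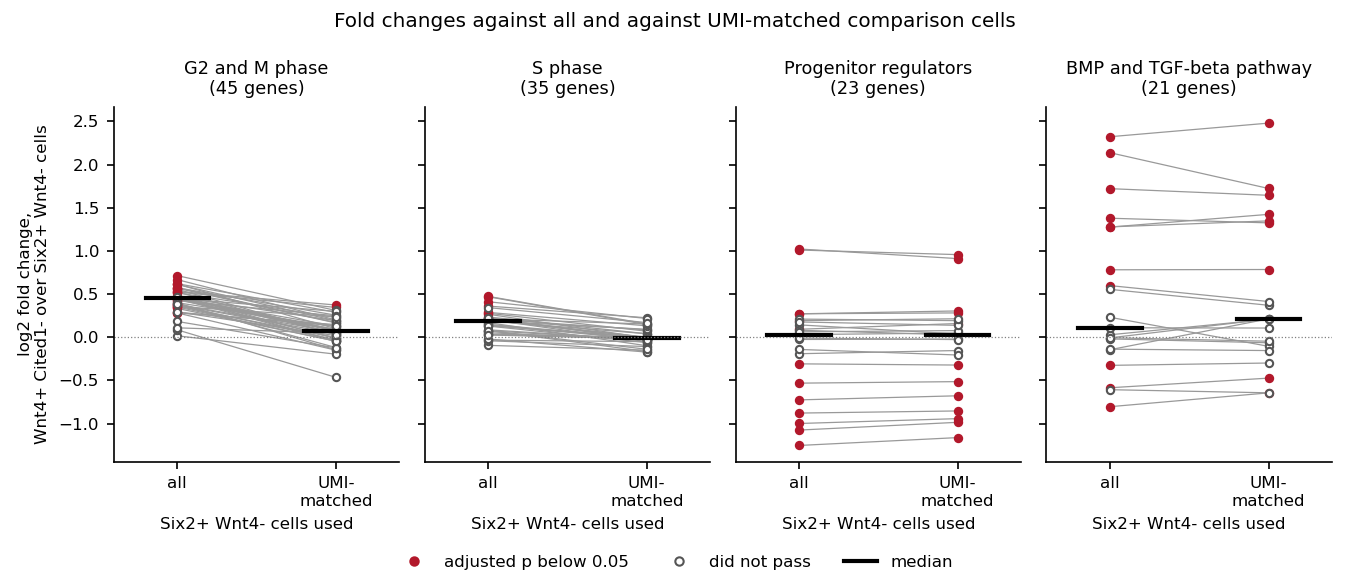
Log2 fold change of Wnt4+ Cited1- cells over Six2+ Wnt4- cells for each gene (points joined by a line) when all comparison cells or cells matched in UMIs were used, with list medians (bars); filled points passed an edgeR adjusted p of 0.05. The median of the 45 G2 and M phase genes was 0.45 against all cells and 0.08 against matched cells, and that of the 23 progenitor regulators was 0.03 in both.

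Some regulators of the G1 phase passed in either comparison. Ccnd2, a D cyclin, was at 545, 685 and 528 CPM in members and 359.7, 411 and 369 CPM in Six2+ Wnt4- cells (log2 fold change 0.61 ± 0.05, SE; edgeR adjusted p = 1.09e-13). Cdkn1c, the cyclin-dependent kinase inhibitor p57, was at 917, 1065 and 761 CPM in members and 1555, 2147 and 1693 CPM in Six2+ Wnt4- cells (log2 fold change -0.95 ± 0.05, SE; edgeR adjusted p = 1.92e-20). Neither overlapped, and both passed against the UMI-matched cells and with each library left out. Of the 10 tested genes of this list 3 were higher and 1 lower, against 6.73% and 5.76% of all genes. The increase of Cdkn1a was lost without library 3 (edgeR adjusted p = 0.132).

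Immediate early genes are switched on rapidly when cells are stimulated or tissue is taken apart. Of 21 tested, 9 were lower and 4 higher, against 5.76% and 6.73% of all genes. The list median was -0.29. Together the listed genes took 0.215%, 0.493% and 0.275% of UMIs in members of libraries 1, 2 and 3, against 0.284%, 0.622% and 0.378% in Six2+ Wnt4- cells. Library 2 was high in both groups and members were lower within each library. Junb was at 127, 366 and 114 CPM in members and 212, 530.02 and 258 CPM in Six2+ Wnt4- cells (log2 fold change -0.78 ± 0.08, SE; edgeR adjusted p = 2.20e-10), and Ier2 fell by 0.59 and Btg2 by 0.75 on the log2 scale. Ier3 was among the 4 higher genes through the single immune-marker cell of library 2. The part of dissociation in this difference was not tested.

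Members differed among themselves with their Wnt4 count. In members with 1, 2 and at least 3 Wnt4 UMIs, Wfdc2 stood at 39.9, 89.1 and 115 CPM over all libraries, Id1 at 136, 202 and 309 CPM and Pax8 at 56.7, 89.1 and 108 CPM. Six2+ Wnt4- cells had 23.4, 79.3 and 30.1 CPM of these genes. Some other genes ran the other way: Meox1 was at 63.1, 23.6 and 16.6 CPM, Osr1 at 188, 104 and 70.05 CPM and Colec12 at 33.5, 10.5 and 6.45 CPM in the same order, against 87.6, 271 and 67.9 CPM in Six2+ Wnt4- cells. Meox1 and Colec12 were lower in members with at least 3 Wnt4 UMIs than in those with 1 in each library. The progenitor genes Eya1 and Six2, and Pgf, did not fall throughout. Eya1 was at 234, 139 and 145 CPM, Pgf at 36.5, 15.7 and 25.8 CPM and Six2 at 102, 77.3 and 100.5 CPM with 1, 2 and at least 3 Wnt4 UMIs, and each was lowest with 2. Tmem100 was higher with at least 3 than with 1 Wnt4 UMI in libraries 1 (70.2 and 11.8 CPM) and 2 (76.2 and 20.3 CPM) and lower in library 3 (19.5 and 53.8 CPM). Median depth was 15850, 20809 and 24028 UMIs in members with 1, 2 and at least 3 Wnt4 UMIs, so the Wnt4 count moved with depth, whose part was not tested.

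**Figure D4:**
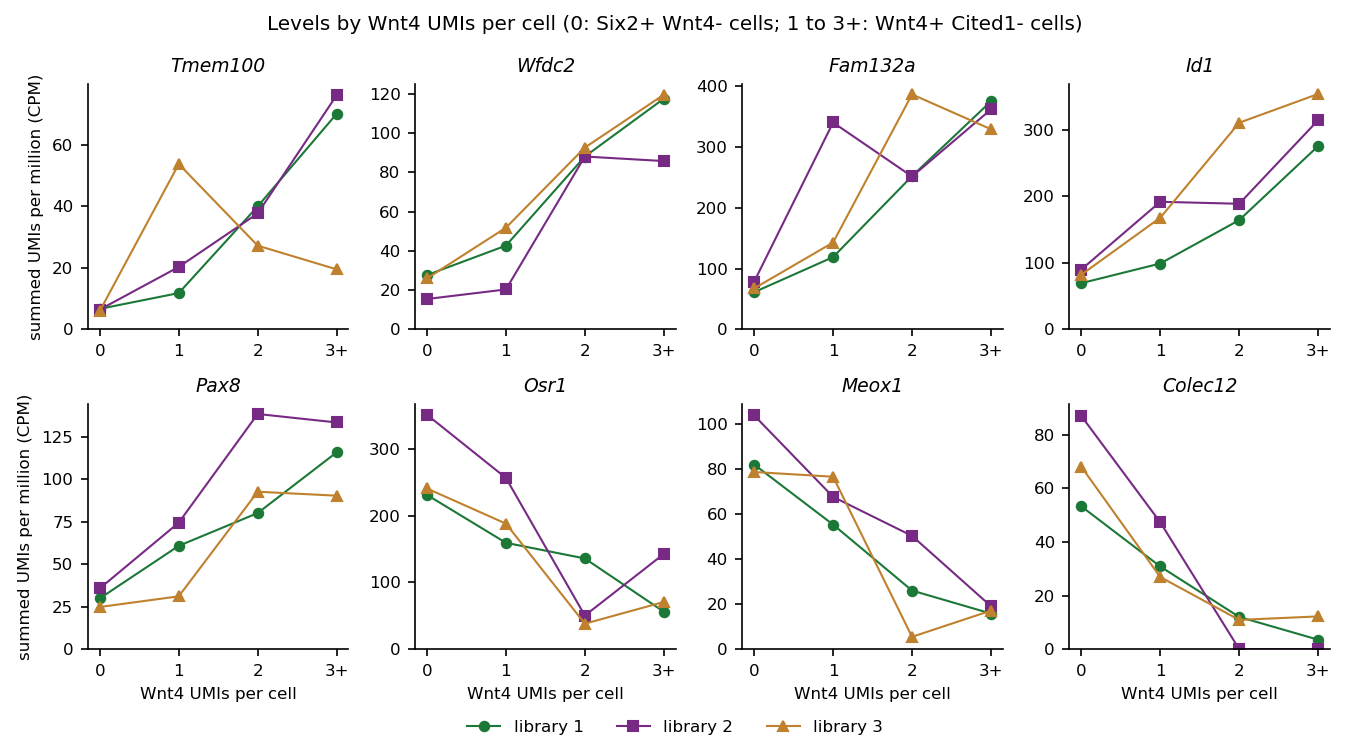
CPM per library of 8 genes by Wnt4 UMIs per cell, with Six2+ Wnt4- cells at 0 and Wnt4+ Cited1- cells at 1, 2 and 3 or more. In library 1 Pax8 was at 29.9 CPM at 0, 60.8 at 1, 80.04 at 2 and 116 at 3 or more Wnt4 UMIs, and Meox1 at 82.01 CPM at 0, 55.3 at 1, 26.01 at 2 and 15.8 at 3 or more.

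The 19 cells just outside the rule, Wnt4-positive and Cited1-negative with 2 or more early nephron UMIs, and the 8 members with 1 such UMI are few, and their values are descriptions. Over all libraries Pax8 stood at 73.02 CPM in the 195 members with 0, 175 CPM in the 8 members with 1 and 321 CPM in the 19 cells outside, and Ccnd1 at 179, 404 and 864 CPM. Bmper ran the other way, at 60.4, 30.1 and 16.5 CPM. On the Cited1 side, cells with 1 Cited1 UMI were closer to the members than cells with 2 or more in some genes and not in others. Id2 averaged 789.8 ± 92.4 CPM in members (SD, n = 3), 730.3 CPM in cells with 1 and 365 CPM in cells with at least 2 Cited1 UMIs, and Frzb averaged 46.6 ± 10.3, 43.1 and 9.86 CPM. Pax8 averaged 78.7 ± 14.2 CPM in members, 45.4 CPM in cells with 1 and 47.2 CPM in cells with at least 2, and Ccnd1 200.3 ± 30.6, 147 and 143 CPM, so for these genes both were about as far from the members.

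The second comparison set members against Wnt4+ Cited1+ cells, which differ from them in the rule by Cited1 UMIs alone. Both comparisons share the members, so their results are not independent. Of the 10289 genes 49 (0.476%) were higher and 58 (0.564%) lower in members by edgeR's adjusted p (1.04% in all). The libraries of members and Wnt4+ Cited1+ cells did not overlap in CPM in 664 genes (6.45%). Of 22 BMP and TGF-beta genes 4 were higher, 1 lower and 17 did not pass, and of 23 progenitor regulators 4 were lower and 19 did not pass. Without library 1, 22 genes were called, against 110 without library 2 and 115 without library 3. Folds did not shrink with the calls in every gene: without library 1 the log2 fold change was 1.39 for Tenm4, 1.13 for Fam132a, 0.65 for Id2 and -0.89 for Crym, against 1.09, 0.93, 0.69 and -0.73 with all libraries. Of 37 genes named for this comparison, 7 kept their call with each library left out, namely Fam132a, Id2, Id1, Id3, Ccnd2, Crym and Cdkn1c. Without the library block, 0 genes passed by edgeR's adjusted p and 571 had an unadjusted p below 0.05, and DESeq2 with the block called 57.

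Id2 was at 693, 877 and 799 CPM in members of libraries 1, 2 and 3, against 402, 406 and 635 CPM in Wnt4+ Cited1+ cells (log2 fold change 0.69 ± 0.07, SE; edgeR adjusted p = 5.00e-09). Id1 was at 107, 109 and 168 CPM in Wnt4+ Cited1+ cells, and members were higher by 0.67 ± 0.105 (SE; edgeR adjusted p = 5.51e-05), and Id3 at 467, 496 and 662 CPM with a difference of 0.56 ± 0.06 (SE; edgeR adjusted p = 1.38e-08). Id2 and Id3 did not overlap between the groups, and Id1 did across libraries. Fam132a, at 217, 333 and 255 CPM in members and 131, 117 and 140.4 CPM in Wnt4+ Cited1+ cells, differed by 0.93 ± 0.09 on the log2 scale (SE; edgeR adjusted p = 1.26e-09). Ccnd2 was at 426, 417 and 441 CPM in Wnt4+ Cited1+ cells, below every library of members (log2 fold change 0.41 ± 0.06, SE; edgeR adjusted p = 9.81e-06).

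Crym was the clearest decrease, at 124, 137 and 116 CPM in members and 181, 287 and 194 CPM in Wnt4+ Cited1+ cells (log2 fold change -0.73 ± 0.09, SE; edgeR adjusted p = 4.04e-07), without overlap. Cdkn1c was at 1082, 1588 and 961 CPM in Wnt4+ Cited1+ cells, and members were lower by the log2 fold change of -0.37 ± 0.05 (SE; edgeR adjusted p = 1.66e-05). The 4 lower progenitor regulators were Crym, Meox1 (-0.76 ± 0.17), Osr1 (-0.51 ± 0.09) and Robo2 (-0.404 ± 0.07, log2 fold change with SE). Meox1, Osr1, Robo2 and Nrp1 (-0.76 ± 0.11) did not pass without library 1 (edgeR adjusted p = 0.809, 0.31, 0.0744 and 0.304). The 4 higher BMP and TGF-beta genes were the Id genes above and Bmper, and the lower one was Tgfbi. Bmper lost its call without library 1 or 2 (edgeR adjusted p = 0.416 and 0.245) and Tgfbi without library 1 (0.0923). Without library 1, 1 of 23 progenitor regulators was lower, and 3 BMP and TGF-beta genes were higher and 0 lower.

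Most of the largest differences by fold lost their call when a library was left out. Apoe, a lipid carrier of macrophages, led the increases among genes at 20 CPM or more (log2 fold change 2.68 ± 0.53, SE). It was at 17.03, 320.04 and 24.2 CPM in members and 9.61, 14.2 and 12.1 CPM in Wnt4+ Cited1+ cells. The immune-marker cell of library 2 holds 189 of the 264 Apoe UMIs in members. Without library 2 Apoe did not pass (log2 fold change 0.87, edgeR adjusted p = 0.206). Nor did it with cells of other cell types' markers left out (edgeR adjusted p = 0.784, and 0.129 with the narrower list of such markers added after seeing the data). Tenm4 stood at 32.2, 25.5 and 23.2 CPM in members and 17.4, 7.09 and 10.6 CPM in Wnt4+ Cited1+ cells (log2 fold change 1.09 ± 0.26, SE; edgeR adjusted p = 0.0198), and lost the call without library 1 (0.422). Cecr2, a bromodomain protein, and Col9a1 lost theirs without library 1 (edgeR adjusted p = 0.574 and 0.592) or library 2 (0.247 and 0.342). Ppp1r14a, Pcp4, a calmodulin-binding protein, and Foxd2, a forkhead factor, were lower but did not pass without library 1 (edgeR adjusted p = 0.6, 0.42 and 0.352), and Sh3kbp1, an adaptor protein, did not pass without library 1 or 3 (0.452 and 0.148). Pax8, at 79.6, 92.4 and 64.1 CPM in members and 43.5, 42.5 and 52.4 CPM in Wnt4+ Cited1+ cells (log2 fold change 0.74 ± 0.14, SE; edgeR adjusted p = 0.0015), lost its call without library 1 at a log2 fold change of 0.64 (edgeR adjusted p = 0.514).

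Of the other lists, some had genes that passed between the Wnt4-positive groups and some had none, where 1.04% of all genes were called. By edgeR's adjusted p and by DESeq2, 0 of 45 genes of G2 and M phase, 0 of 35 of S phase and 0 of 14 of the Notch pathway passed, while 9, 2 and 5 of them had an unadjusted edgeR p below 0.05. Without library 2, 3 G2 and M genes were higher, and without library 3, 2. Of 15 Wnt targets and effectors, Ccnd1 was higher (log2 fold change 0.37 ± 0.09, SE; edgeR adjusted p = 0.0226), but not without library 2 (0.194) or 3 (0.118). Sp5 at 5.03, 14.2 and 14.4 CPM in Wnt4+ Cited1+ cells overlapped with the members and did not pass (edgeR adjusted p = 0.779). Lef1, at 2.29, 2.36 and 3.795 CPM there, did not overlap but missed the threshold (edgeR adjusted p = 0.0765). Of 15 mesenchymal genes 3 were higher, Acta2, Col1a1 and Col1a2, the genes held by few cells, and 0 without library 1. Of 21 immediate early genes 5 were lower and 1 higher; without library 1, 0 were called, and without library 2, 3 were lower and 0 higher.

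**Figure D5:**
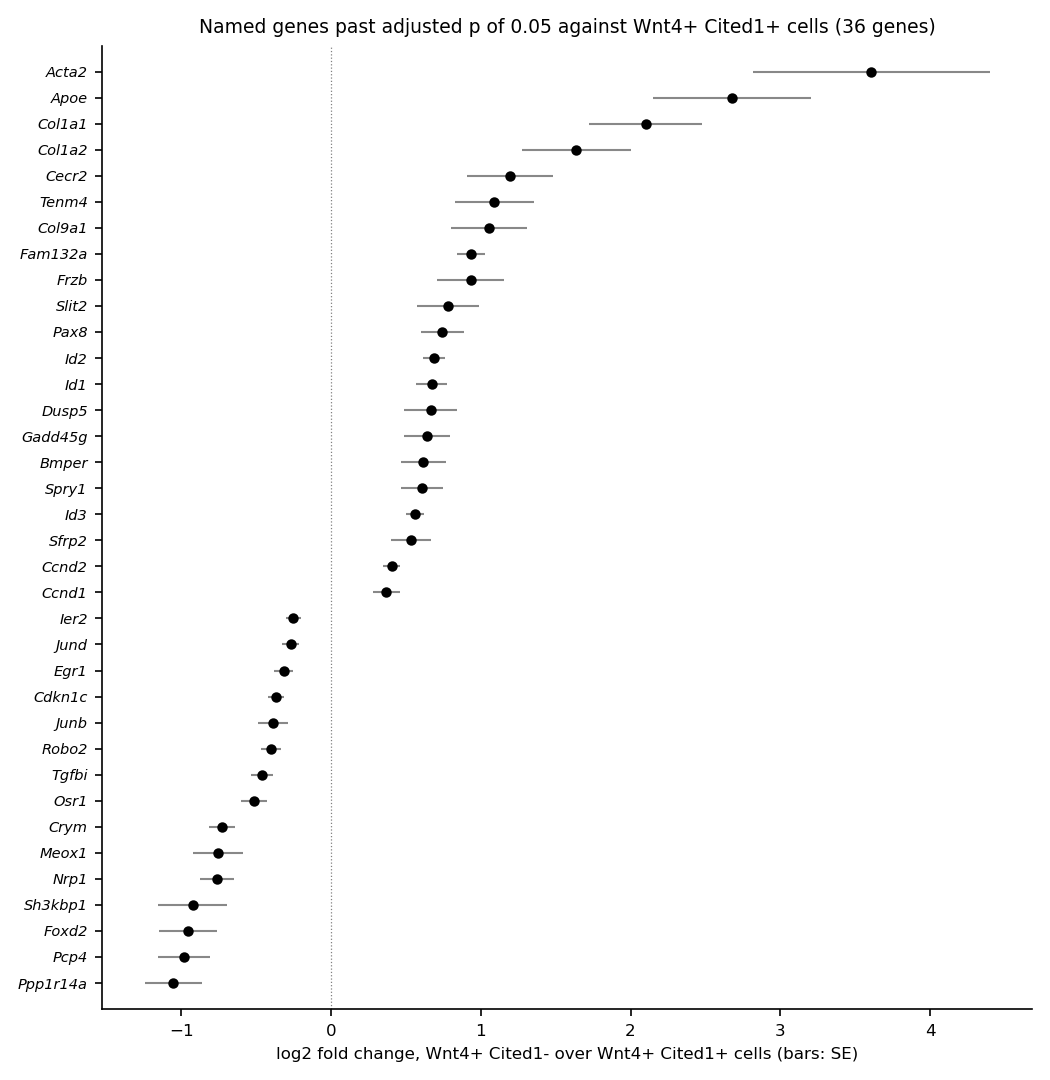
Log2 fold change of Wnt4+ Cited1- cells over Wnt4+ Cited1+ cells (points, bars SE) of 36 named genes that passed an edgeR adjusted p of 0.05, ordered by fold change. Id2 was higher by 0.69 and Crym lower at -0.73 with short bars, while Acta2 and Apoe, which few cells carry, stand at 3.61 and 2.68 with long ones.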

How the data were processed

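Single-cell RNA of 3 libraries was deposited as 1 matrix of raw UMI counts per gene and cell, which the authors made with Cell Ranger 1.3.1 on mm10, per the submitters' processing notes. Counts were summed per library over each cell group. The sums of 3 groups in 3 libraries (9 sums) were fitted with edgeR 4.0.16 in R 4.3.3 (TMM scaling, filterByExpr, quasi-likelihood test, library as block, Benjamini-Hochberg adjusted p), with the 7 genes of the rule kept out of the test. Groups of 1 library share a tube, which is where the pairing comes from. SE is the absolute log2 fold change divided by the square root of F. CPM is unscaled. The fit was tested on simulated data. DESeq2 1.42.0 and the alternatives below were also run; Scrublet in scanpy 1.11.5 gave doublet scores, and thinning used numpy 2.4.6 in Python 3.11.15. Exact intervals came from scipy 1.17.1. Coordinates are GENCODE M21 (GRCm38), matched by gene ID.

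Named genes were the 12 largest changes per direction against Six2+ Wnt4- cells and the 5 largest against Wnt4+ Cited1+ cells (adjusted p below 0.05, 3 of 3 libraries, at least 20 CPM), plus up to 4 per list and direction. Genes named because they did not pass, and Top2a, Ccnb1, Nkd1, Znrf3, Bambi and Smad7 as examples, were chosen after their values were seen. Members, lists and tests were chosen with earlier results of these data known. Some items are not reported here.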

Additional observations from a re-analysis of the deposited data

How the results depend on the processing

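No direction turned under any alternative among the genes chosen by the naming rule, while Top2a and Ccnb1, given as examples, turned against UMI-matched cells (log2 fold change -0.15 and -0.05). Against Six2+ Wnt4- cells (1285 genes called), DESeq2 called 754, the fit with no replicate block 324, leaving out cells with other cell types' markers 682, sums thinned to equal depth 312 and UMI-matched comparison cells 544. Leaving out 1 library gave 444 to 1323. Against Wnt4+ Cited1+ cells (107 called), DESeq2 called 57 and the fit with no replicate block 0. Limiting both groups to at least 2 Wnt4 UMIs gave 26. That limit left 27, 4 and 22 Wnt4+ Cited1+ cells in libraries 1, 2 and 3. Leaving out other cell types' markers gave 23, leaving out barcodes rich in A and T 63 and equal depth 35. Leaving out 1 library gave 22 to 115. The cause of these changes was not tested. Settings that left out cells or thinned sums also left fewer cells or UMIs, and the part of that was not tested either. A narrower list of other cell types' markers, added after seeing the data, gave 1312 and 123. The split of higher against lower calls in the first comparison was 692 to 593, and 542 to 736 with no filter on low counts, which moved the median of all genes by -0.13; it was 616 to 721 with only the 6 compared sums and 125 to 187 at equal depth. The share of members was 1.003% with at least 2 Wnt4 UMIs, and 2.04% to 2.96% over the libraries left out. Genes such as Notum, Lef1 and Jag1 were too low to be tested with every library left out.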
